A study of Homo sapiens with 10 samples.

Results

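Most of the 9 platelet granule cargo genes encode products that megakaryocytes pack for release by platelets. SELP encodes a granule membrane receptor, and the product of F13A1 is mostly cytoplasmic in platelets. The 9 genes are PF4, PPBP, VWF, SELP, THBS1, F13A1, SRGN, MMRN1 and TGFB1. They were chosen by name, and every array probe whose transcript accession belongs to one of them was taken, which gave 12 probes of the 42405 on the array and 9 genes of the 19102 with a matched symbol. The study asked which messenger RNAs change when miR-1225-3p is raised in a megakaryocytic cell. MEG-01, an established human megakaryoblastic leukemia line, was nucleofected either with the miR-1225-3p precursor at 200 nM or with a scrambled, negative control precursor at 200 nM, and total RNA was collected 24 hours later. Both groups came from the same line, grown in the same medium and electroporated the same way, so that they share the handling and differ in the precursor. Each group had 5 arrays from separate experiments run at the same time. MEG-01 is a single leukemic line, so the values describe that line and neither donor megakaryocytes nor platelets.

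Alpha granules are storage organelles that megakaryocytes fill by synthesis and uptake and that platelets empty at a wound. Their cargo includes chemokines, adhesive proteins, coagulation proteins and growth factors, sorted at the trans-Golgi network and through multivesicular bodies, while small basic proteins are retained by the proteoglycan serglycin. A microRNA lowers messages mainly by pairing of its seed with sites in their 3′ ends. The mature strand is shown because its seed is what such pairing would use, and the capitals mark the seed, bases 2 to 8, of the sequence in RefSeq (GRCh38.p14, chr16:2090195-2090216, minus strand, within the span of PKD1).
hsa-miR-1225-3p: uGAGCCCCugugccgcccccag
Of its 22 bases 17 are G or C, and so are 6 of the 7 seed bases. Seed matches in the members' messages were not searched here.

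For 6 of the 9 members, RefSeq promoters of 250 bases before to 50 after the start were at hand, and PF4, VWF and SRGN were not among them. In these windows 5 short motifs of megakaryocytic and general promoters were searched on both strands. The ETS core AGGAAG, read CTTCCT on the other strand, was found for 6 of these 6 members (in 1 of the 2 windows of MMRN1), and in 33.6% of all 35116 promoters of this length. The GATA motif AGATAA was found for 1 of 6, PPBP (10.3% of all promoters), the RUNX motif TGTGGT for 2 of 6, PPBP and SELP (13.1%), the TATA box TATAAA for 1 of 6, PPBP (11.5%), and the AP-1 and NF-E2 core TGAGTCA for 0 of 6 (4.95%). In PPBP the GATA match at -217 and the ETS match at -221 share letters. The stretches below show 1 ETS match in each promoter, in capitals and on the strand of the gene (GRCh38.p14). A match describes letters and is not a site that was measured.
PPBP, -221, chr4:73988394-73988423, minus strand: tacacaggtgtaAGGAAGataagtattgag
SELP, -53, chr1:169630160-169630189, minus strand: tggaatgtgaatAGGAAGttgtttttctaa
THBS1, -87, chr15:39580980-39581009, plus strand: ccccacctcccgCTTCCTgcccggccgccg
F13A1, -37, chr6:6320682-6320711, minus strand: agggctcctcttAGGAAGttatttaagagc
MMRN1, -43, chr4:89894799-89894828, plus strand: caggaaaccgaaCTTCCTgagtacgctaca
TGFB1, -57, chr19:41353962-41353991, minus strand: ccgccccgtgcgCTTCCTgggtggggccgg

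Values are normalized log2 signals of the 1-colour arrays, and a difference between groups is a log2 fold change, miR-1225-3p minus scrambled. A probe was tested where it was well above background, by the scanner software's flag, on at least 3 arrays of either group. A level belongs to its own probe and cannot be set against that of another. Of all spots, 41.95% to 53.85% were well above background in the miR-1225-3p group and 43.09% to 61.18% in the scrambled group, with 0 saturated spots. The arrays lay on 2 slides, each with both groups. One array stood apart. Relative to the mean difference between the groups, set to 1 for miR-1225-3p and 0 for scrambled and taken for each array from the others, miR-1225-3p replicate 5 lay at 0.047 over all tested probes, the other 4 miR-1225-3p arrays at 0.868 to 1.60 and the scrambled arrays at -0.0577 to 0.16. Results are therefore given with this array and without it.

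The line's identity was checked by megakaryocyte markers. Probes for ITGA2B and ITGB3, the subunits of the fibrinogen receptor, for GP6, for the transcription factors GATA1, FLI1, NFE2, RUNX1, TAL1 and ZFPM1 and for PPBP were well above background on all 10 arrays. PF4 and TUBB1, the tubulin of platelet marginal bands, were well above background on none. Of the 12 markers tested, 1 was called higher and 3 lower (33.3% called in all, against 35.0% of all tested probes, of which 16.3% were called higher and 18.8% lower), with a median log2 fold change of -0.44. ITGA2B was called lower at -1.39 (adjusted p = 0.0438, limma), FLI1 at -0.60 (adjusted p = 0.0296) and NFE2 at -0.43 (adjusted p = 0.0268), while RUNX1 was called higher at 0.46 (adjusted p = 0.0227) at its brightest probe. The call of ITGA2B was lost without any single array except miR-1225-3p replicate 5. FLI1 and NFE2 kept theirs in 5 and 3 of 10 such fits and RUNX1 in 7. Of the other 4 probes for RUNX1, 1 was called higher at 0.69 and the others had log2 fold changes from -1.21 to 0.01 that did not pass. Erythroid markers were detected too: 9 of 11 had a tested probe, 1 called higher and 1 lower, and their summed signal was 439800 to 724700 on the miR-1225-3p and 593100 to 1031000 on the scrambled arrays. Granulocyte and monocyte markers had 3 of 7 tested genes called, all higher (42.9%, beside the 35.0% and 16.3% above), with summed signals of 2522 to 3771 against 1811 to 2407. Lymphocyte and endothelial markers each had 2 of 4 tested genes called, with 2 lower among the endothelial ones. CD2, MS4A1 and EMCN were well above background on no array. Whether a shift in cell state moves with the cargo genes was not tested, and in bulk RNA fewer cells of a kind and less RNA per cell cannot be told apart.

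Of the 12 member probes, 7 passed the filter on dim signals, for 6 genes: PPBP, THBS1 (2 probes), F13A1, SRGN, MMRN1 and TGFB1. By limma with Benjamini-Hochberg adjustment over all 20640 tested probes, 4 of these 7 had an adjusted p under 0.05, where 35.0% of all tested probes had. The dimmer THBS1 probe and MMRN1 had passed the filter through 1 group alone, the one in which each was higher, and are left out of the tally. Of the 5 probes that passed the filter in both groups, 3 were called, where 34.3% of the 17395 such probes were. F13A1 was called higher (17.6% of such probes were) and the brighter THBS1 probe and TGFB1 lower (16.8%). PF4, VWF, both SELP probes and the second F13A1 probe were too dim to be tested. No test was made of whether these shares differ from those of all probes.

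**Figure D1:**
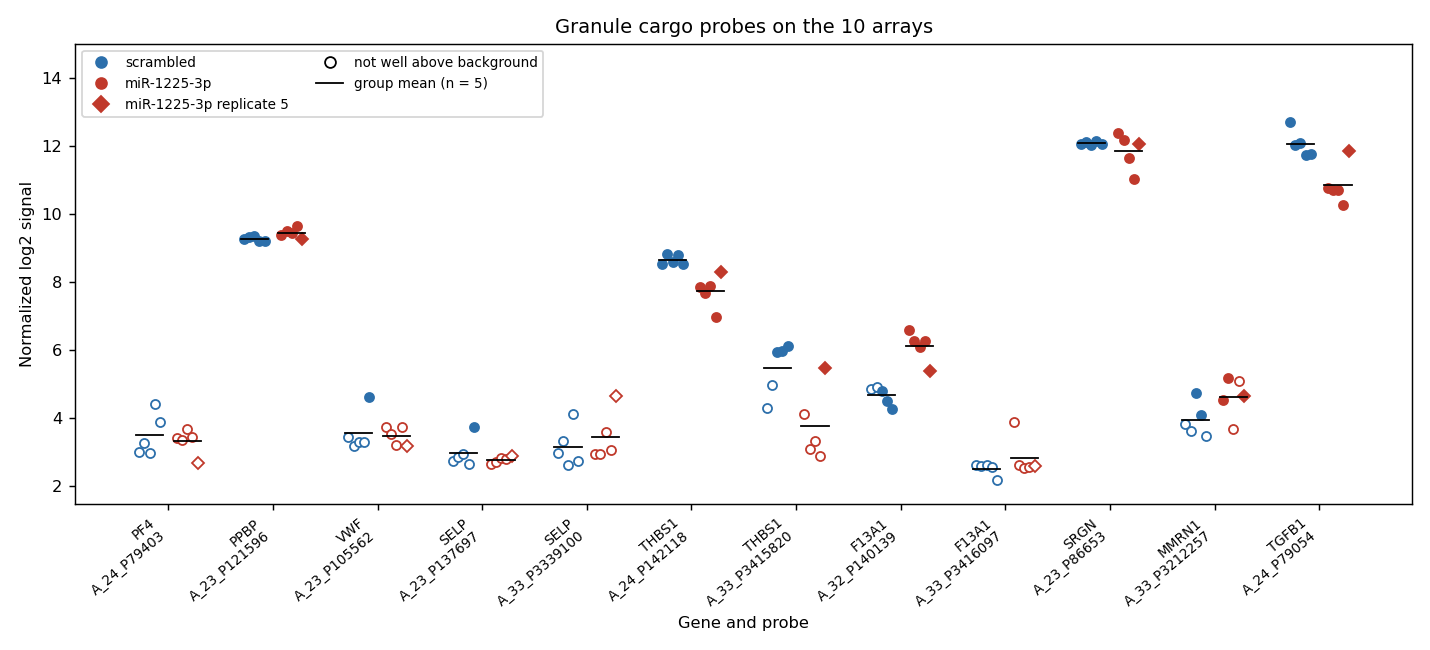
Normalized log2 signal (vertical axis) of the 12 granule cargo probes (horizontal axis) on each of the 10 arrays, scrambled in blue and miR-1225-3p in red, with group means as lines, miR-1225-3p replicate 5 as a diamond, and open symbols where the probe was not well above background. All 5 miR-1225-3p arrays lie above the scrambled ones for F13A1 (A_32_P140139) and below them for THBS1 (A_24_P142118), while for TGFB1 replicate 5 lies among the scrambled arrays.

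The chemokines came first. PF4, platelet factor 4, a heparin-binding CXC chemokine, was not well above background on any array. Its normalized log2 signal ranged from 2.69 to 3.69 in miR-1225-3p cells and from 2.99 to 4.43 in scrambled cells, so that the message was not detectable here, which is a limit of the probe and array and no proof of absence. PPBP, the precursor of beta-thromboglobulin and of the neutrophil-activating peptide NAP-2, was well above background on all 10 arrays, with 10 spots on each. Its log2 signal was 9.39, 9.52, 9.44, 9.65 and 9.27 on miR-1225-3p replicates 1 to 5. On scrambled replicates 1 to 5 it was 9.27, 9.34, 9.36, 9.22 and 9.22. Of the miR-1225-3p arrays 4 lay above the highest scrambled array and replicate 5 lay among the scrambled ones. The means were 9.45 ± 0.14 and 9.28 ± 0.07 (SD, n = 5 each), a log2 fold change of 0.17 with a 95% confidence interval of -0.09 to 0.43. This did not pass in limma (adjusted p = 0.253), and the two-sided exact permutation test of this probe alone gave p = 0.0397. Without miR-1225-3p replicate 5 it was 0.22 (adjusted p = 0.0942). PPBP passed under 2 alternatives, at 0.51 with the 75th percentile of each array subtracted (adjusted p = 0.0477) and at 0.22 with array weights (adjusted p = 0.0266). The 10 spots of the probe differed by an SD of 0.035 to 0.098 within an array.

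The adhesive proteins were next. VWF, von Willebrand factor, which tethers platelets to collagen and carries factor VIII, was near background, with log2 signals from 3.18 to 3.75 on the miR-1225-3p arrays and from 3.19 to 4.62 on the scrambled arrays. It was well above background on scrambled replicate 5 alone, where 8 of its 10 spots carried the flag. SELP, P-selectin, the granule membrane receptor that moves to the surface of activated platelets, had 2 probes, and neither was tested. One (A_23_P137697) ranged from 2.67 to 2.88 on the miR-1225-3p and from 2.67 to 3.75 on the scrambled arrays, the highest value and the only flagged one again on scrambled replicate 5, and the other (A_33_P3339100) was well above background on no array. VWF and SELP were thus not measurable in this line with these probes on most arrays.

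THBS1, thrombospondin-1, a matrix glycoprotein that binds CD36 and CD47 and can activate latent TGF-beta, was lower after miR-1225-3p. On its brighter probe (A_24_P142118), well above background on all 10 arrays, the log2 signal was 7.85, 7.69, 7.88, 6.97 and 8.31 on miR-1225-3p replicates 1 to 5. On scrambled replicates 1 to 5 it was 8.53, 8.83, 8.59, 8.80 and 8.54. Every miR-1225-3p array lay below every scrambled array, as was so, in this direction, for 4.82% of all tested probes, and replicate 5 was the nearest to the scrambled arrays. The mean was 7.74 ± 0.49 against 8.66 ± 0.15 (SD, n = 5 each), that is, a difference of -0.92 on the log2 scale (standard error 0.22), or 1.89-fold lower (adjusted p = 0.0185, limma). The exact permutation test gave p = 0.00794, the smallest that 5 arrays against 5 allow. Without replicate 5 the change was -1.06 (adjusted p = 0.00174), and without miR-1225-3p replicate 2 it was -0.91 with an adjusted p of 0.0501, no longer under the threshold. Within slide 1 it was -0.79 (adjusted p = 0.0275) and within slide 2, which holds replicate 5, -1.10 (adjusted p = 0.501).

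The second THBS1 probe (A_33_P3415820), a single spot, was dim. It stood at 4.12, 3.09, 3.33, 2.91 and 5.49 on miR-1225-3p replicates 1 to 5 and was well above background on replicate 5 alone. On scrambled replicates 1 to 5 it stood at 4.31, 4.99, 5.97, 5.98 and 6.14, with the last 3 well above background. The fitted log2 fold change was -1.69, and 4 of the 5 miR-1225-3p arrays lay below the lowest scrambled array. Since this probe was tested only because it was bright enough on the scrambled arrays, its direction favoured its passing, and it is given as a description that adds nothing to the brighter probe. Its size rests on signals near background, being -0.35 after normexp background correction.

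MMRN1, multimerin 1, a large granule protein that binds factor V, was dim, with 3 miR-1225-3p arrays and 2 scrambled arrays well above background. Its log2 signal was 4.55, 5.20, 3.69, 5.11 and 4.65 on miR-1225-3p replicates 1 to 5 and 3.83, 3.63, 4.75, 4.10 and 3.49 on scrambled replicates 1 to 5. The groups overlapped. The log2 fold change of 0.68, with a 95% confidence interval of -0.04 to 1.39, did not pass (adjusted p = 0.118, limma), nor did it under any alternative tried, and the interval reaches from no change to more than a 2-fold rise.

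F13A1 encodes the A subunit of factor XIII, the transglutaminase that cross-links fibrin. In platelets it is mostly a protein of the cytoplasm. Its brighter probe (A_32_P140139) was higher after miR-1225-3p, with log2 signals of 6.61, 6.27, 6.10, 6.26 and 5.40 on miR-1225-3p replicates 1 to 5. On scrambled replicates 1 to 5 they were 4.87, 4.93, 4.81, 4.52 and 4.27. Every miR-1225-3p array lay above every scrambled array, as for 7.78% of all tested probes in this direction, and replicate 5 was again the one closest to the scrambled arrays. The means were 6.13 ± 0.45 and 4.68 ± 0.28 (SD, n = 5 each), that is, a difference of 1.45 on the log2 scale (standard error 0.23), or 2.73-fold higher (adjusted p = 0.0144, limma), and the exact permutation test gave p = 0.00794. It was the one member called without each of the 10 arrays in turn, among the probes tested, with log2 fold changes of 1.33 to 1.63, the largest without replicate 5 (adjusted p = 0.000114). Within slide 1 the change was 1.79 (adjusted p = 0.015) and within slide 2 it was 1.20 (adjusted p = 0.501).

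The signal of F13A1 was low. Before normalization between arrays its processed signal was 112.8, 56.2, 33.7, 55.9 and 61.8 on miR-1225-3p replicates 1 to 5 and 18.9, 31.3, 49.4, 31.3 and 38 on scrambled replicates 1 to 5, so that the groups overlapped at this stage. The log2 fold change was then 0.94 with an adjusted p of 0.155. With normexp background correction it was 0.50 and still called, a smaller size than with the scanner's own background subtraction. Of the scrambled arrays, replicates 3, 4 and 5 were well above background at this probe. The second F13A1 probe (A_33_P3416097) was well above background on no array and bears on neither direction.

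SRGN, serglycin, the proteoglycan that holds basic cargo such as PF4 in the granule, was well above background on all 10 arrays. Its log2 signal was 12.39, 12.17, 11.65, 11.03 and 12.06 on miR-1225-3p replicates 1 to 5. On scrambled replicates 1 to 5 it was 12.05, 12.12, 12.04, 12.16 and 12.07. Of the miR-1225-3p arrays 2 lay above and 2 below all scrambled arrays, which themselves spanned a narrow range (SD 0.05, against 0.54 for miR-1225-3p). The 2 high arrays were those of slide 1 and the 2 low ones were on slide 2. The log2 fold change was -0.23 with a 95% confidence interval of -0.75 to 0.29 (adjusted p = 0.453, limma), and its sign was not stable, being 0.23 within slide 1, -0.56 within slide 2 and 0.29 with the 75th percentile subtracted, none of them past the threshold.

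TGFB1, transforming growth factor beta 1, which platelets store in a latent form, was lower after miR-1225-3p. With 10 spots on each array, its log2 signal was 10.76, 10.72, 10.70, 10.26 and 11.87 on miR-1225-3p replicates 1 to 5. On scrambled replicates 1 to 5 it was 12.71, 12.03, 12.10, 11.75 and 11.77. Replicates 1 to 4 of miR-1225-3p lay below the lowest scrambled array, and replicate 5 lay above 2 scrambled arrays, so the groups overlapped at that array alone. The means were 10.86 ± 0.60 and 12.07 ± 0.39 (SD, n = 5 each), that is, a difference of -1.21 on the log2 scale (standard error 0.30), or 2.31-fold lower (adjusted p = 0.0190, limma), with p = 0.0238 in the exact permutation test. Without replicate 5 it was -1.46 (adjusted p = 0.00051), and without miR-1225-3p replicate 2 it was -1.17 with an adjusted p of 0.0512, likewise no longer under it. Within slide 1 it was -1.46 (adjusted p = 0.0274) and within slide 2 it was -0.94 (adjusted p = 0.501). The size moved with the scaling, to -0.72 with the 75th percentile subtracted, where the probe was still called. Its 10 spots varied by an SD of 0.026 to 0.069 within an array.

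**Figure D2:**
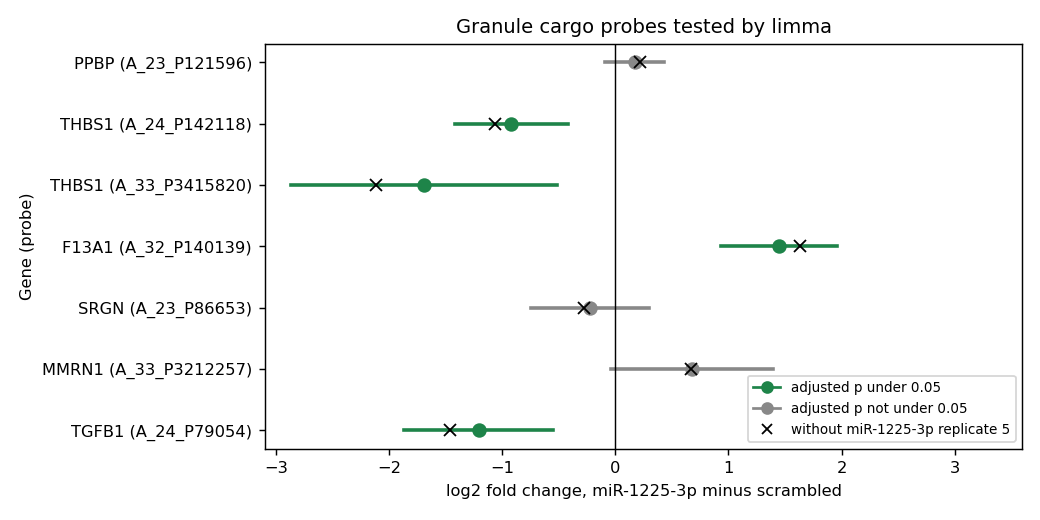
Log2 fold change, miR-1225-3p minus scrambled (horizontal axis), of the 7 tested granule cargo probes (vertical axis), with 95% confidence intervals from limma as bars, green where the adjusted p was under 0.05, and the value without miR-1225-3p replicate 5 as a cross. F13A1 stands at 1.45, the brighter THBS1 probe at -0.92 and TGFB1 at -1.21, and leaving out replicate 5 moved each of these 3 away from zero. The dim THBS1 probe (A_33_P3415820) and MMRN1 were tested through 1 group alone.

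Set between the scrambled mean (0) and the mean of the other 4 miR-1225-3p arrays (1), miR-1225-3p replicate 5 lay at 0.33 for the brighter THBS1 probe, 0.44 for F13A1 and 0.14 for TGFB1. For the dim THBS1 probe it lay at -0.005. For the called members it was thus closer to the scrambled level than to that of its own group, as over all tested probes. What sets this array apart was not tested, and neither was whether its label is right, so values that include it hold on the condition that it is.

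The calls of the members were followed through the alternative processings. THBS1 at its brighter probe and TGFB1 each kept direction and call in 20 of 24 and F13A1 in 20 of 23. None of these 3 changed sign. Without normalization between arrays none of the 7 probes was called by limma, although 4 had an unadjusted p under 0.05, and within slide 2 none was called and 1 had an unadjusted p under 0.05, where no probe of the whole array was called and 1395 had an unadjusted p under 0.05.

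**Figure D3:**
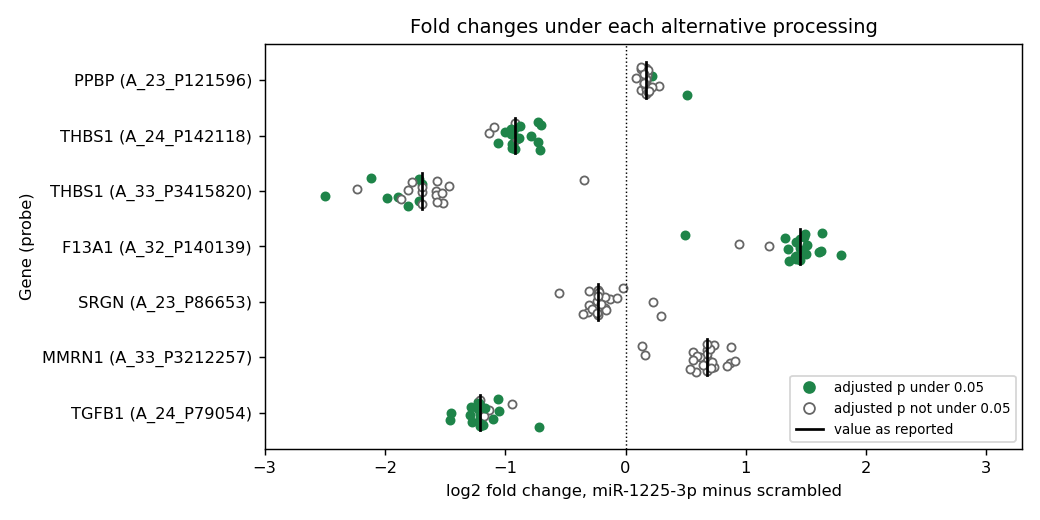
Log2 fold change (horizontal axis) of the 7 tested granule cargo probes (vertical axis) under each alternative processing, one point each, filled where the adjusted p was under 0.05, with the reported value as a line. Points for F13A1, TGFB1 and both THBS1 probes stay on one side of zero, those for SRGN lie on both sides, and the dim THBS1 probe and F13A1 lie nearest to zero, at -0.35 and 0.50, with normexp background correction.

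Genes that make, fill and empty granules, and the partners of the members, were taken from 6 lists of 157 genes, of which 126 had a tested probe. Each gene is read at its brightest tested probe. Of these, 51 were called (40.5%, against 35.0% of all tested probes), 17 higher and 34 lower, with a median log2 fold change of -0.21 against -0.09 over all tested probes. Of the 110 genes whose probe passed the filter in both groups, 44 were called, 16 higher and 28 lower, where 34.3% of such probes were called. The split moved with the scaling, to 36 higher and 30 lower of 66 with the 75th percentile subtracted and 21 higher and 27 lower of 48 with quantile normalization. Over all tested probes it moved likewise, from 3356 higher and 3871 lower to 5135 and 3267, and to 4131 and 3064. The count also rested on single arrays, as did that over all 20640 tested probes, given in brackets. It was 80 when miR-1225-3p replicate 5 was left out (11520). Leaving out replicates 2, 3 and 4 of that group, in turn, gave 13, 14 and 31 (2281, 2556 and 4096). Leaving out scrambled replicates 1 to 4 gave 27, 27, 24 and 21 (4008, 4012, 3753 and 3545). Without miR-1225-3p replicate 1 it was 38 (5003), and without scrambled replicate 5 it was 41 (5445). The counts of single lists below, with 1 array left out, come from these same fits.

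**Figure D4:**
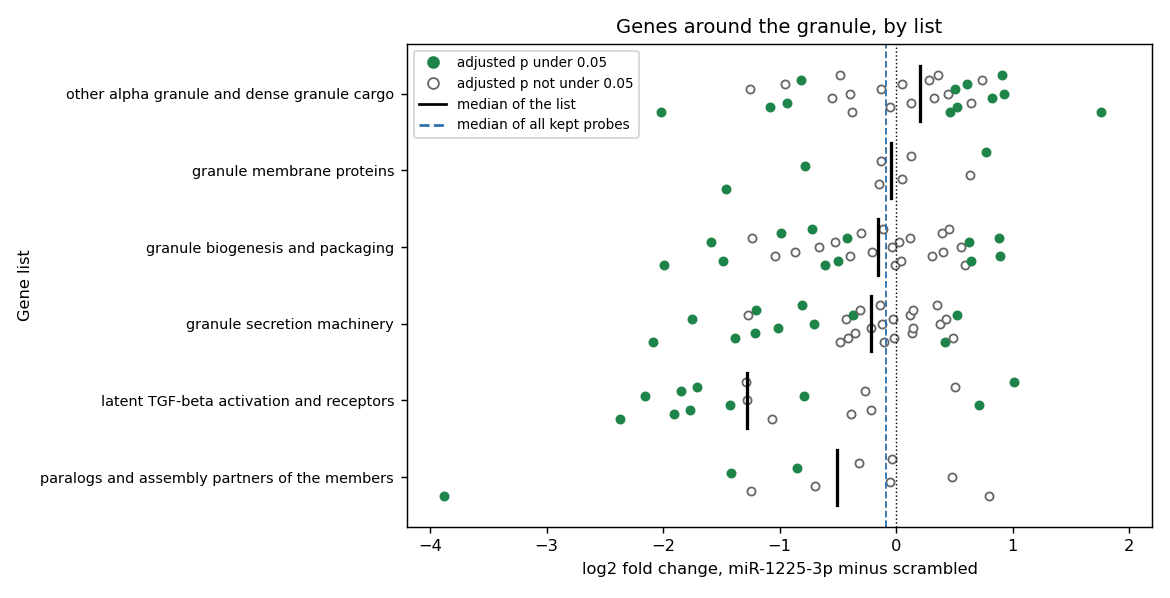
Log2 fold change (horizontal axis) of each tested gene in the 6 lists around the granule (vertical axis), one point a gene at its brightest tested probe, filled where the adjusted p was under 0.05, with list medians as black lines and the median of all tested probes as a dashed line. The list around latent TGF-beta has its median at -1.28, and the other lists have medians between -0.51 and 0.20.

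Of the other cargo genes, 28 of 44 were tested and 12 called, 8 higher and 4 lower, with a median of 0.20 (42.9% called, against 35.0% of all tested probes). The split was 14 higher and 3 lower with the 75th percentile subtracted, and the count was 2 without miR-1225-3p replicate 2, replicate 3 or scrambled replicate 4, 3, 4 and 5 without scrambled replicates 2, 1 and 3, 6 without miR-1225-3p replicate 4, and 17 without replicate 5. TIMP2 and TIMP1, both tissue inhibitors of metalloproteinases, went opposite ways, TIMP2 by 1.76 (adjusted p = 0.0161) and TIMP1 by -1.08 (adjusted p = 0.0155), and both calls stood without each single array. TIMP1 was well above background on all arrays, at 13.57 ± 0.46 against 14.65 ± 0.29 (SD, n = 5 each). SPARC, osteonectin, was called higher at 0.91, and A2M, a protease inhibitor tested through the miR-1225-3p arrays alone (4 of 5 well above background, against 2 of 5), had a fitted 0.92. LGALS3BP, a galectin-binding glycoprotein, was called lower at -2.02. CCL5, the chemokine RANTES, was well above background on 3 scrambled arrays and on no miR-1225-3p array. Its mean was 3.72 on the miR-1225-3p and 4.65 on the scrambled arrays (adjusted p = 0.0245, limma). The probe was tested through the scrambled arrays alone, so its direction favoured its passing. With each miR-1225-3p array set to the higher of its own signal and the lowest signal well above background there, the difference was 1.44-fold. This averages all scrambled arrays, also those not well above background, and is no firm minimum. The calls of A2M, SPARC, LGALS3BP and CCL5 stood in 4, 6, 5 and 4 of the 10 fits that leave out 1 array. F5, FGB, FGG and FN1 were among 9 cargo genes well above background on no array.

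Of 8 tested granule membrane genes 3 were called (37.5%, against the same 35.0%). LAMP1, a lysosomal membrane glycoprotein, was called higher at 0.78, and SCAMP2 and the transporter gene ABCC4 lower at -1.46 and -0.78. ABCC4 alone of these kept its call without each single array, and SCAMP2 kept it only without miR-1225-3p replicate 5. In granule biogenesis and packaging 12 of 32 tested genes were called, 4 higher and 8 lower, with a median of -0.16 (37.5% called, against 35.0% of all tested probes). The split turned to 8 higher and 5 lower with the 75th percentile subtracted and was 4 and 5 with quantile normalization, and the count was 2 without miR-1225-3p replicate 2 or replicate 3, 3 and 4 without scrambled replicates 4 and 3, 6 without scrambled replicate 1 or 2, and 21 without miR-1225-3p replicate 5. DTNBP1 and LYST, genes of lysosome-related organelles mutated in Hermansky-Pudlak and Chediak-Higashi syndromes, were called higher at 0.89 each and SNX1, a sorting nexin, at 0.65. M6PR and IGF2R, the mannose 6-phosphate receptors, were called lower at -1.99 and -1.59, and VPS33B, which alpha granule formation needs, at -1.49. The calls of DTNBP1 and LYST stood only without miR-1225-3p replicate 5, and that of IGF2R in 2 of 10 such fits, SNX1 and VPS33B in 6 each and M6PR in 5.

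In the secretion machinery 11 of 31 tested genes were called, 2 higher and 9 lower, with a median of -0.22 (35.5% called, against 35.0% of all tested probes). The split was 8 and 8 with the 75th percentile subtracted and 5 higher and 6 lower with quantile normalization, and the count was 3 without miR-1225-3p replicate 2, replicate 3 or scrambled replicate 3, 19 without miR-1225-3p replicate 5, 8 without scrambled replicate 5, and 5 or 6 without any one of the remaining arrays. VAMP2 and VAMP3, vesicle SNAREs, were lower at -2.09 (adjusted p = 0.03) and -1.75 (adjusted p = 0.0224). Their other tested probes had smaller values that did not pass, -0.86 and -0.41 for VAMP2 and -0.88 for VAMP3. STXBP2, the Munc18 protein needed for platelet secretion, was lower at -1.39 (adjusted p = 0.015), at 6.51 ± 0.67 against 7.89 ± 0.18 (SD, n = 5 each), and every miR-1225-3p array lay below every scrambled array. It kept its call without each single array, VAMP3 in 8 of 10 fits and VAMP2 in 2. SYTL1 and STXBP3 were called higher at 0.52 and 0.42, in 2 and 1 of the 10 fits.

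The list around TGFB1, of genes that process, activate or transmit latent TGF-beta, had 10 of 17 tested genes called (58.8%, against 35.0% of all tested probes), 2 higher and 8 lower, and a median of -1.28. Of the 11 genes whose probe passed the filter in both groups, 6 were called, 2 higher and 4 lower, with a median of -0.79. Of all such probes 34.3% were called. ITGAV, the alpha V integrin subunit that can release TGF-beta from its latent complex, was higher at 1.01, with 13.38 ± 0.44 against 12.37 ± 0.15 (SD, n = 5 each, adjusted p = 0.0146). TGFBI, a TGF-beta-induced matrix protein, was higher at 0.71. TGFBR3, betaglycan, was lower at -2.15 (adjusted p = 0.0146). The transcriptional co-repressor SKI and FURIN, a convertase that cleaves the TGF-beta precursor, were tested through the scrambled arrays alone, and their fitted values of -1.91 and -2.37 rest on miR-1225-3p signals that were mostly not well above background. TGFBR2, the type II receptor, named after its value was seen, was lower at -1.85 (adjusted p = 0.0203), with every miR-1225-3p array between 7.33 and 10.02 and every scrambled array between 10.27 and 10.78. Of the SMAD genes in the list, SMAD3, a signal transducer, was at -0.27 (adjusted p = 0.206) and SMAD4 at -1.29 (adjusted p = 0.062), and neither passed. SMAD7 was called lower at -1.43 (adjusted p = 0.0419). SMAD2 had a fitted -1.77 (adjusted p = 0.0219) but was tested through the scrambled arrays alone. The SMAD genes are named on the same footing as TGFBR2. Many of these probes were dim in the miR-1225-3p cells, FURIN being well above background on 1, SKI on 2 and TGFBR3 on 3 of 5 arrays. Among the 7 genes of the list well above background on all 10 arrays, 4 were called in a fit of such probes alone, 2 higher and 2 lower. In that fit 5393 of all 13778 such probes were called. ITGAV and TGFBR3 kept their calls without each single array, SKI in 9, TGFBR2 in 8, TGFBI in 4 and FURIN in 2 of 10 fits. The count of 10 fell to 3 without miR-1225-3p replicate 2, to 4 without replicate 3 and to 6 without replicate 4.

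In the list of paralogs and assembly partners of the members, 10 of 16 genes were tested and 3 called (30.0%, against 35.0% of all tested probes), all lower. EMILIN1, a relative of MMRN1, had the largest change among the genes named here, at -3.88 (standard error 0.99, adjusted p = 0.0205), from 8.26 ± 2.13 against 12.15 ± 1.33 (SD, n = 5 each), and the groups overlapped. Without replicate 5 it was -4.77, and the call was lost without miR-1225-3p replicate 2 or replicate 3. SELPLG, the ligand of P-selectin, was lower at -1.42 (adjusted p = 0.0146), its second probe at -0.98 (adjusted p = 0.166). PRG2 was lower at -0.85 (adjusted p = 0.0146). It encodes a granule protein of eosinophils and, though in this list, is neither a paralog nor an assembly partner of a member. SELPLG and PRG2 kept their calls without each single array. PF4V1, THBS2 and F13B were well above background on no array, so that these relatives of PF4, THBS1 and F13A1 could not be measured beside them.

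The genes whose profile over the 10 arrays was most like that of a member were sought among 10467 probes well above background on every array, by the root mean square difference of centred log2 values. For TGFB1 these were SAMD1 (0.117) and HMBOX1 (0.118), where the member's own values had a root mean square spread of 0.755 about their mean. For THBS1 they were SLC35E1 (0.153) and PI4KB (0.157), against a spread of 0.562. For SRGN they were MEST (0.0669) and POC1B (0.0713), against 0.359, and for PPBP they were MTREX (0.0357) and ANXA1 (0.0454), against 0.131. All points share the same 10 arrays and the same groups, and likeness here is a description.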

How the data were processed

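Total RNA of MEG-01 cells was hybridized to 1-colour Agilent arrays, 5 for each precursor. The authors deposited the scanner output (Agilent Feature Extraction 10.7.3.1 per the file headers, a version that differs from the one in the methods), where the column of processed signals gives each spot's intensity after background subtraction and the median signal and its background are intensities as scanned. They also deposited a table of normalized log2 values for 29271 probes, used as an alternative. It holds all the member probes. Its array medians were 4.769 to 5.151, and after centring each probe its values correlated with those computed here at 0.981 to 0.998 per array. It was taken as log2 from this comparison, and the methods also give values relative to the geometric mean of controls, a step that was not repeated, since what those controls were is not given in the sources used here.

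The log2 processed signal of all spots was normalized by cyclic loess (limma 3.58.1, R 4.3.3, 3 iterations), as the methods state, after leaving out 4259 control spots. Spots flagged as outliers were dropped and the remaining spots of a probe were averaged. A probe counted as well above background on an array when a share of at least 0.5 of its spots carried the flag, and was tested when this held on at least 3 arrays of a group, which left 20640 of 42405 probes. RefSeq accessions gave a symbol to 24910 probes, with GRCh38.p14 as the assembly of the gene table. Groups follow the sample titles and the methods, since the scrambled samples carry a source label of no treatment.

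Groups were compared by limma (lmFit, eBayes) with Benjamini-Hochberg adjustment over all tested probes at 0.05, and single member probes also by an exact permutation test over 252 splits. limma was tested on simulated data. The number of arrays limits the precision. The members and lists were chosen with earlier results of these data known. All members were named, and from each other list the 3 largest rises and 3 largest falls among called genes. The marker lists other than megakaryocyte are given by counts. The methods' t-test, other normalizations, normexp background correction of the median signal (offset 50), filters, blocks for slide and replicate, and leaving out each array were alternatives. Protein and probe sequences were not used here. Some genes of the lists are not reported here.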

Additional observations from a re-analysis of the deposited data

Results flagged for a closer look

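Each of the 12 member probes was searched for outlying arrays within each group, 24 searches in all. They found 4 outlying values, where chance at 1 in 20 would give 1.2. All 4 lie on probes too dim to be tested. VWF on scrambled replicate 5 had a log2 signal of 4.62, above the other scrambled arrays (3.19 to 3.45), and was well above background there alone. SELP (A_23_P137697) on the same array had 3.75, above the others at 2.67 to 2.95, with 1 of its 2 spots well above background. The second F13A1 probe (A_33_P3416097) had 2.18 on that array, below the others at 2.58 to 2.64, and 3.90 on miR-1225-3p replicate 1, above the others at 2.54 to 2.63, with no spot well above background in either case. Scrambled replicate 5 had the largest share of spots well above background of the 10 arrays, 61.18%, and its part in these values was not tested.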

How the results depend on the processing

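The count of 4 called member probes (of 7) was 0 without normalization between arrays, 2 when probes had to be well above background on all 10 arrays (4 probes tested), 0 with the replicate number as a block, 0 within slide 2, and between 1 and 4 when 1 array was left out, the 1 without miR-1225-3p replicate 2. The other alternatives gave 3 to 5. The count of 51 called list genes (of 126) was 7 without normalization, 29 of 155 with dim probes kept, 89 with weighted arrays, 0 with the replicate block, 0 within slide 2, and between 13 and 80 when 1 array was left out. Over all probes, the 7227 called of 20640 were 1224 without normalization, 4014 of 42405 with dim probes kept and 13760 with weighted arrays. They were 0 with the replicate block, 0 within slide 2, and between 2281 and 11520 when 1 array was left out. Of the 13778 probes well above background on all 10 arrays, 5393 were called. SRGN reversed, to 0.29 with the 75th percentile subtracted and 0.23 within slide 1, without passing in either. The median log2 fold change of all tested probes was -0.09 as reported, 0.11 after subtracting the 75th percentile, 0.04 after quantile normalization and -0.31 without normalization. Relative to it TGFB1 stood at -1.12, -0.83, -1.14 and -0.83, F13A1 at 1.54, 1.25, 1.56 and 1.25, and the brighter THBS1 probe at -0.83, -0.82, -0.78 and -0.82. By the methods' t-test with Benjamini-Hochberg adjustment 3 member probes and 47 list genes passed, as did 5481 of all 20640 tested probes.

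Arrays with the same replicate number did not deviate together (correlations of their deviations from -0.401 to 0.0585). The sample titles do not say whether equal numbers mark a pair, and the reported fit does not pair them. These correlations cannot exclude that equal numbers mark a shared experiment. With the replicate block limma called 0 of 20640 probes, with 8992 at an unadjusted p under 0.05, 4 member probes and 69 list genes among them, and the adjusted p of F13A1 was 0.0503. Why calls were lost under each of these alternatives was not tested. Some use fewer arrays or probes, while the replicate block and the fit without normalization use all arrays and all 20640 probes.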
